A study of Mus musculus with 3 samples.

Results

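The locus described here is the stretch of mouse chromosome 12 that holds the transcription factor genes Nkx2-1, Nkx2-9 and Pax9. Its members are all regions of 2 deposited lists that lie within chr12:57580000-57840000 on mm9, a window of 260 kb. These are 4 of the 21998 regions enriched for H3K4me3 and 56 of the 117512 regions enriched for H3K27me3, and 0 regions cross an edge of the window. The lists come from chromatin immunoprecipitation with sequencing (ChIP-seq) of neurospheres, floating cultures grown on low-attachment plates from neural stem cells of the subventricular zone, which lines the lateral ventricles of the brain. All cells came from wild-type (WT) male C57BL/6 mice, and neither an age nor a number of animals is stated in the sources used here. There was 1 library precipitated with an H3K4me3 antibody and 1 with an H3K27me3 antibody, and the input DNA sample was not analysed here. Without replicates no value below has a replicate error, and without read counts the depth is unknown, so a mark that was not called may still be present at a level that was not detectable.

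H3K4me3, trimethylation of lysine 4 of histone H3, is found at active and poised promoters. H3K27me3, trimethylation of lysine 27, is laid down by Polycomb repressive complex 2 and forms broad blankets over silent developmental regulators, and promoters with both marks are called bivalent. Nkx2-1 encodes a homeodomain factor that specifies the ventral forebrain, above all the medial ganglionic eminence, and also the thyroid and lung. In the adult subventricular zone its expression is known from ventral stem cells. Nkx2-9 encodes a related homeodomain factor of the ventral neural tube, a target of Sonic hedgehog signalling. Pax9 encodes a paired-box factor that acts in the pharyngeal pouches, teeth and axial skeleton and is not a typical gene of the forebrain. The libraries were made from bulk cells, so marks found at the same region may come from different cells or alleles.

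In the GRCm38.p6 annotation of RefSeq, 12 genes lie between the nearest flanking coding genes, Mbip on the Nkx2-1 side and Slc25a21 on the Pax9 side. Only 3 of these 12 code for proteins, and they follow each other in the order Nkx2-1, Nkx2-9, Pax9. A further 5 are long noncoding RNA (lncRNA) genes. Sfta3-ps, also named Nanci, lies next to Nkx2-1, and Gm15524 and Gm46352 lie beside Pax9. Gm26973 and C87198 are listed between Nkx2-1 and Nkx2-9. The annotated starts of Gm26973 run from beside the Nkx2-1 start to past the Nkx2-9 start. That annotation is of another build than the lists, so it gives names and order only. On mm9 the positions used are approximate ones, 57632000 for Nkx2-1, 57712000 for Nkx2-9 and 57792000 for Pax9, and could not be checked against mm9 gene models here. No region can therefore be assigned to an exon, an intron or a start site, and the lncRNA genes cannot be placed among the regions.

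The promoters of the 3 coding genes are shown because the marks described below are spread around these genes, and because CpG-rich DNA is where Polycomb complexes commonly bind. All 3 were matched by symbol in the RefSeq promoter table. Each line holds the 250 bases before the annotated start, 5′ to 3′ on the gene's strand, with every CpG in capitals. Their positions are on GRCm38.p6 and cannot be set against the mm9 positions of the regions: Nkx2-1 at chr12:56536909-56537158 on the minus strand, Nkx2-9 at chr12:56613285-56613534 on the minus strand and Pax9 at chr12:56695221-56695470 on the plus strand.
Nkx2-1: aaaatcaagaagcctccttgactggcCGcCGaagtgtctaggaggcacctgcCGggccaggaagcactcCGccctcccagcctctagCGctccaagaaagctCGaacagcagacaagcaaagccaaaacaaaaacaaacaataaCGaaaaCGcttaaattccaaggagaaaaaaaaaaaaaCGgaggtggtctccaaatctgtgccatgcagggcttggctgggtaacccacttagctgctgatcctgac
Nkx2-9: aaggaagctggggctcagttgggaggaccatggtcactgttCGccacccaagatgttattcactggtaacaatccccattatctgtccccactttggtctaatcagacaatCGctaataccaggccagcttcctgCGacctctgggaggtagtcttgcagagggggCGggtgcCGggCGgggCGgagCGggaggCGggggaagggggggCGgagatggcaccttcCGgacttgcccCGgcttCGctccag
Pax9: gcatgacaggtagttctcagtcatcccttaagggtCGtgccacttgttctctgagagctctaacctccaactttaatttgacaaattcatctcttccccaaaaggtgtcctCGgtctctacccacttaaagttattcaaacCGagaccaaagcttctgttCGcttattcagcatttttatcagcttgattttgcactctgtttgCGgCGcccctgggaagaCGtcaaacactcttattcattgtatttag

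The promoters held more CpG than the median promoter but were not extreme. The Nkx2-1 sequence held 9 CpG, that of Nkx2-9 held 13 and that of Pax9 held 7, against a median of 6 over the same 250 bases of 32851 promoters. The GC content was 50.8% at Nkx2-1, 61.6% at Nkx2-9 and 43.6% at Pax9, around the median of 52.4%. Relative to the number that their base composition gives, the CpG ratio was 0.564 at Nkx2-1, 0.558 at Nkx2-9 and 0.617 at Pax9, while the median was 0.374. Of all promoters, 63.6% had a lower ratio than Nkx2-1, 63.2% a lower ratio than Nkx2-9 and 67.2% a lower ratio than Pax9. The 3 promoters thus differed in GC content but lay close together in their CpG ratio. The letters GACCACCCA, a sequence bound by the Gli factors of the Sonic hedgehog pathway, were searched on both strands of the full 300 bases, which add 50 after the start. They were in 0 of the 3 and in 0.253% of all promoters, which says only that these letters are not in this short window.

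H3K27me3 covered 84.3 kb of the window, or 32.4%. Over the assembled chromosomes it covered 5.68%, and over chromosome 12 5.35%. The 56 regions were mostly small, with a median width of 813.5 bp and a range from 449 to 11686 bp, close to the median of 878 bp over the whole list. Most of the covered length lay in a small number of wide, high-scoring regions. The score is the authors' own value for each region, with no stated scale, and it piles up at 3100. A score of 3100 or more is called the top score here, although 103 H3K27me3 and 89 H3K4me3 regions of the whole lists lie above 3100, up to 3233. In the window 0 regions did. Of the 56 regions, 8 (14.3%) reached it, against 2.55% of all H3K27me3 regions. These 8 regions, 2382 to 11686 bp wide, held 44.6 kb, or 52.9% of the H3K27me3 in the window. The matching share of length over the whole list is not given here. The other 48 had scores down to 50.1, at the lower limit of the list.

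**Figure D1:**
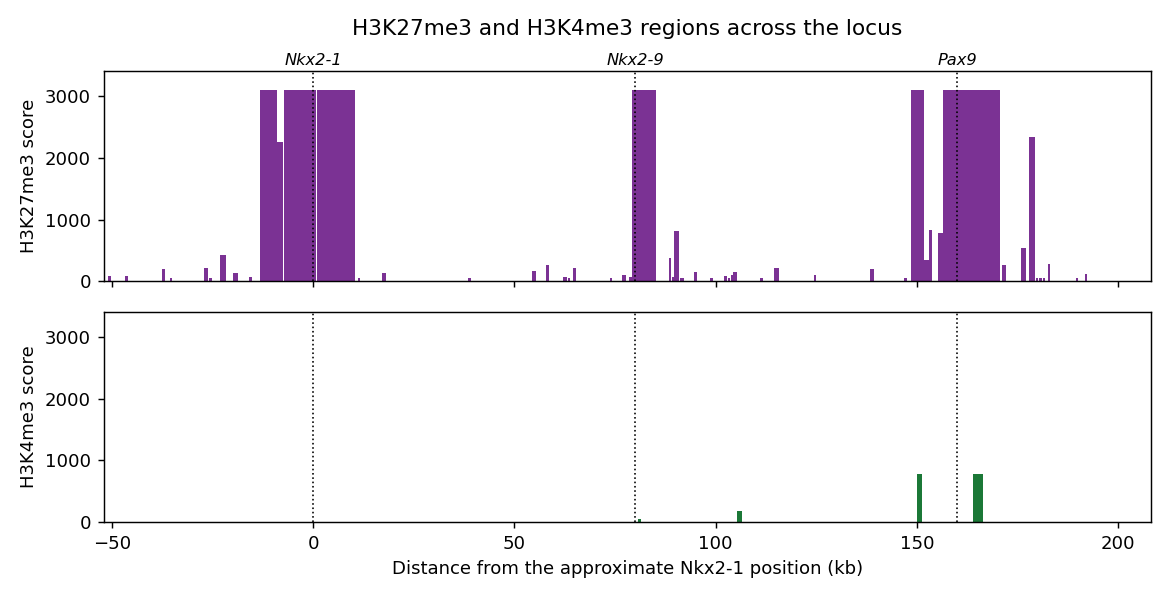
Regions of both marks across the window. The x axis is the distance in kb from the approximate Nkx2-1 position, each bar spans 1 region, its height is the authors' score (no unit) and dotted lines mark the approximate gene positions. Of the 8 H3K27me3 bars at 3100, 4 lie at Nkx2-1, 1 at Nkx2-9 and 3 at Pax9, and the 4 H3K4me3 regions lie at Nkx2-9, between Nkx2-9 and Pax9, and on both sides of the Pax9 position.

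The 8 top-scoring regions all lay close to the gene positions, with 4 at Nkx2-1, 1 at Nkx2-9 and 3 at Pax9. When H3K27me3 regions were joined over gaps of up to 3 kb, 17 domains touched the window, 14 of them of 1 kb or more. The 3 domains at the genes were the longest, with 38.9 kb at Nkx2-1, 11.4 kb at Nkx2-9 and 25.3 kb at Pax9. These lengths depend on the joining gap: with gaps of up to 1 kb they were 24.8, 8.24 and 16.7 kb, with 5 kb 38.9, 31.7 and 36.3 kb, and with 10 kb 97.1, 70.7 and 53.9 kb. The domain of 97.1 kb began at 57553038, before the window. With scores of at least 100 the domain of Nkx2-1 was 23.5 kb long and that of Pax9 23.6 kb, so that Nkx2-1 no longer had the longest. Together the 3 gene domains, as joined over gaps of up to 3 kb with all scores, made up 29.1% of the window. They held 69.2% of its H3K27me3 and 23 of its 56 regions. The 33 regions outside these domains were at most 1360 bp wide and scored at most 2339. The approximate position of Nkx2-1 lay 11.7 kb from the nearer end of its domain, that of Nkx2-9 5.06 kb and that of Pax9 12.0 kb. An error in position smaller than these leaves each gene position in its domain as joined over gaps of up to 3 kb. With gaps of up to 1 kb the margins were smaller at Nkx2-9 and Pax9, where the domains began at 57708826 and 57787340.

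The Nkx2-1 position lay in the densest part of its domain. The domain ran from 57604831 to 57643745, was built from 11 regions and was covered over 73.7% of its length. Its core, from 57618905 to 57642396, was 23.5 kb long and consisted of 5 regions with gaps of only 23 to 349 bp, so that 98.0% of it was covered. Of these 5 regions 4 had the top score, and the fifth scored 2261. The widest measured 9360 bp (57633037 to 57642396), and 99.5% of all H3K27me3 regions were narrower. The region over the Nkx2-1 position itself ran from 57628572 to 57632687. Within 10 kb on either side of that position, 97.7% of base pairs lay in H3K27me3 regions.

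The Nkx2-1 domain held no H3K4me3 region, with any of the 4 joining gaps. The nearest of the window began 80.8 kb from the Nkx2-1 position, at Nkx2-9, and on the other side the last one before the window ended at 57447553. The stretch without H3K4me3 around Nkx2-1 was therefore 265.2 kb long, and 9.70% of all intervals between neighbouring H3K4me3 regions were at least as long (median 41.5 kb). A long H3K27me3 domain with no H3K4me3 was not rare in these lists. Of 53470 domains on the assembled chromosomes, 685 (1.28%) were at least as long as that of Nkx2-1, and 240 of these (35.0%) held no H3K4me3 region.

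At Nkx2-9 most of the H3K27me3 lay in 1 region. The domain, as joined over gaps of up to 3 kb, ran from 57705666 to 57717063 and was covered over 69.6% of its length. Its top-scoring region of 5860 bp (57711204 to 57717063) contained the Nkx2-9 position and was wider than 98.5% of all H3K27me3 regions. The other 3 regions of the domain lay on the Nkx2-1 side of it, measured 528 to 838 bp and scored 53.6 to 105.7. Within 10 kb of the Nkx2-9 position H3K27me3 covered 46.9%, lower than at the other 2 genes. On the Pax9 side the mark went on beyond a gap of 3296 bp, slightly over the joining gap of 3 kb, with 5 small regions, the highest of which scored 815 and measured 1349 bp (57721607 to 57722955).

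As joined over gaps of up to 3 kb, the domain of Pax9 was shorter than that of Nkx2-1 and covered over more of its length. It ran from 57778786 to 57804040, with 8 regions that covered 86.2% of it, against 73.7% at Nkx2-1, and gaps of at most 1517 bp. Both contrasts depend on the weak regions that were joined in. With scores of at least 100 the Pax9 domain was the longer, 23.6 against 23.5 kb. The Nkx2-1 domain was then its core, which was covered over 98.0%. The widest H3K27me3 region of the window lay in the Pax9 domain, 11686 bp from 57788478 to 57800163 with the top score. It ranked 355 among all 117512 regions by width, and contained the Pax9 position. A second top-scoring region of 2382 bp followed it after 71 bp (57800235 to 57802616), and the last one, of 3214 bp, lay on the side of Nkx2-9 (57780438 to 57783651). Within 10 kb of the Pax9 position the mark covered 90.4%. Beyond the domain, a region of 1360 bp (57809944 to 57811303) reached 2339, the highest score outside the gene domains.

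**Figure D2:**
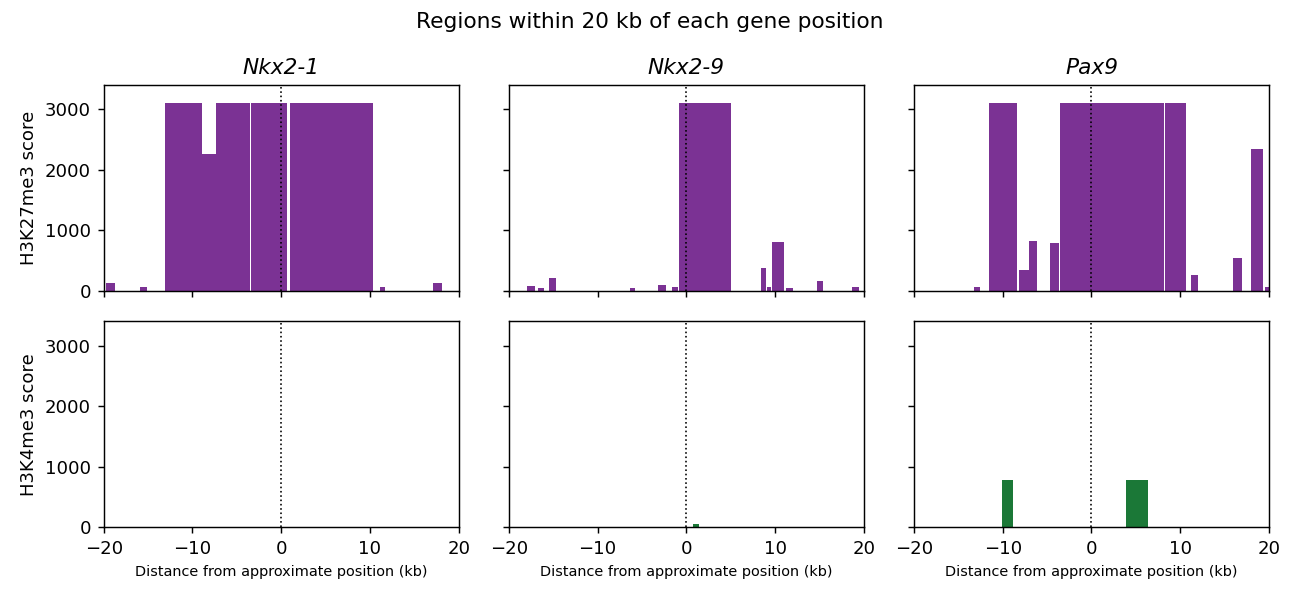
Regions within 20 kb of the approximate position of each gene. Distance in kb is on the x axes and the authors' score (no unit) on the y axes, with H3K27me3 above and H3K4me3 below. Nkx2-1 has H3K27me3 over 97.7% of the 10 kb on either side and no H3K4me3 bar, Nkx2-9 has 1 low H3K4me3 bar inside its H3K27me3 region, and Pax9 has 2.

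Between the gene domains H3K27me3 was sparse but not absent. The 61.9 kb between the Nkx2-1 and Nkx2-9 domains held 7 regions that covered 9.29% of it, with a highest score of 263. The 61.7 kb between the Nkx2-9 and Pax9 domains held 14 regions with 17.8% cover. The longest gap of the window lay in the first of these stretches, 20.3 kb from 57650097 to 57670411, followed by 15.2 kb from 57671115 to 57686351. The longest gap between Nkx2-9 and Pax9 was 13.3 kb, from 57757023 to 57770304. None of these gaps was long for the list, since 19.3% of all gaps between H3K27me3 regions were at least 20.3 kb. The median gap within the window was 1102 bp, and over the whole list it was 2343 bp.

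**Figure D3:**
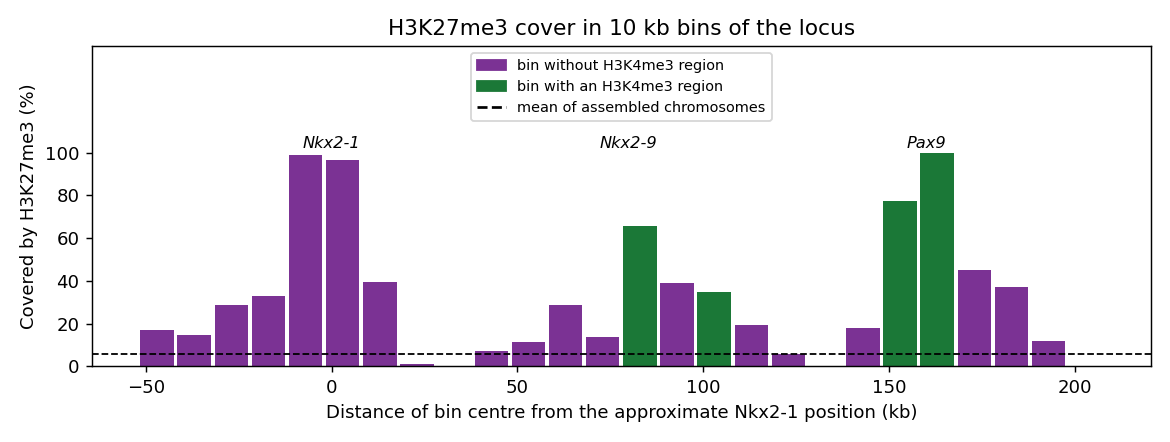
Share of each 10 kb bin of the window covered by H3K27me3. The x axis is the distance of the bin centre from the approximate Nkx2-1 position in kb, the y axis is percent of base pairs, green bins contain part of an H3K4me3 region and the dashed line is the mean of the assembled chromosomes (5.68%). Cover reaches 98.9% at Nkx2-1, 65.6% at Nkx2-9 and the whole bin at Pax9, and falls to 0 between them.

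In bins of 10 kb the highest cover was found at the genes. Cover was 98.9% and 96.5% in the 2 bins at Nkx2-1, then 39.3%, 0.97% and 0 in the next 3 bins. It was 65.6% in the bin of Nkx2-9, was 0 again between Nkx2-9 and Pax9, and was 77.2% and then complete in the bins at Pax9. Between Nkx2-1 and Nkx2-9 a lower maximum of 28.7% stood between bins of 11.5% and 13.7%.

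The borders of the marked stretch differed between its sides. On the Pax9 side the last H3K27me3 region of the window ended at 57824247, 15.8 kb inside the edge, and was followed by 68.5 kb without a region. Only 8.26% of all gaps were as long. On the Nkx2-1 side there was no such border: the first region inside the window began at 57581131 and the last one outside ended at 57578856, 1.14 kb before the edge, so that a small domain crossed it. In the 260 kb before the window H3K27me3 covered 13.5%, and in the 260 kb after it 3.73%. The regions just inside and just outside the edges all scored under 200, at 91.6 and 58.4 on the Nkx2-1 side and 124.3 and 191.1 on the Pax9 side.

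All 4 H3K4me3 regions shared base pairs with H3K27me3, against 33.5% of all H3K4me3 regions and 44.5% of those below the top score. H3K27me3 covered 3 of the 4 over their whole length, as it did 9.55% of all H3K4me3 regions. None of the 4 reached the top score, which 52.6% of the whole list did. With 4 regions chosen by place these shares describe the locus and were not tested. Over the window the marks shared 4.58 kb, or 81.0% of the length of its H3K4me3 regions, while this share was 20.1% over the whole list. Seen from the other mark, 4 of the 56 H3K27me3 regions (7.14%) touched H3K4me3, near the 7.08% of the whole list. Of the 8 top-scoring ones 3 (37.5%) did, against 50.5% of all top-scoring H3K27me3 regions.

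The H3K4me3 region at Nkx2-9 was the narrowest and weakest of the 4. It spanned 688 bp from 57712754 to 57713441, within 1 kb of the Nkx2-9 position, with a score of 59.9. Only 4.18% of all H3K4me3 regions were narrower and 3.06% scored lower. It lay wholly inside the 5860 bp H3K27me3 region, which reached 1550 bp beyond it on 1 side and 3622 bp on the other. Among the 2101 H3K4me3 regions that H3K27me3 covered wholly, 3.81% scored lower.

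The next H3K4me3 region stood apart from the rest. It lay 25.3 kb past the Nkx2-9 position, from 57737279 to 57738465, measured 1187 bp and scored 176. H3K27me3 reached over its first 113 bp only, 9.52% of its length, from a region that itself scored 152 and ended at 57737391. The remaining 1074 bp carried H3K4me3 with no H3K27me3 called. It lay outside the 3 gene domains as joined over gaps of up to 3 kb, but with 5 kb the Nkx2-9 domain reached into it and with 10 kb took it in whole. No gene is assigned to it.

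The Pax9 domain, as joined over gaps of up to 3 kb, held 2 H3K4me3 regions with nearly the same score and different widths. With gaps of up to 1 kb it held only 1, the second described here. The first measured 1274 bp (57781902 to 57783175), scored 786 and lay 8.82 kb before the Pax9 position, inside the 3214 bp H3K27me3 region. The second measured 2510 bp (57795845 to 57798354), scored 775 and lay 3.84 kb past the position, inside the 11686 bp region, which reached 7367 bp beyond it on 1 side and 1809 bp on the other. The second was wider than 65.9% of all H3K4me3 regions and than 92.3% of the wholly covered ones, whose median width was 1393 bp. Both scored above the median of 483 of the wholly covered regions, with 59.4% and 59.0% of these below them. Against the whole H3K4me3 list they were low, with 35.4% and 35.2% scoring less.

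**Figure D4:**
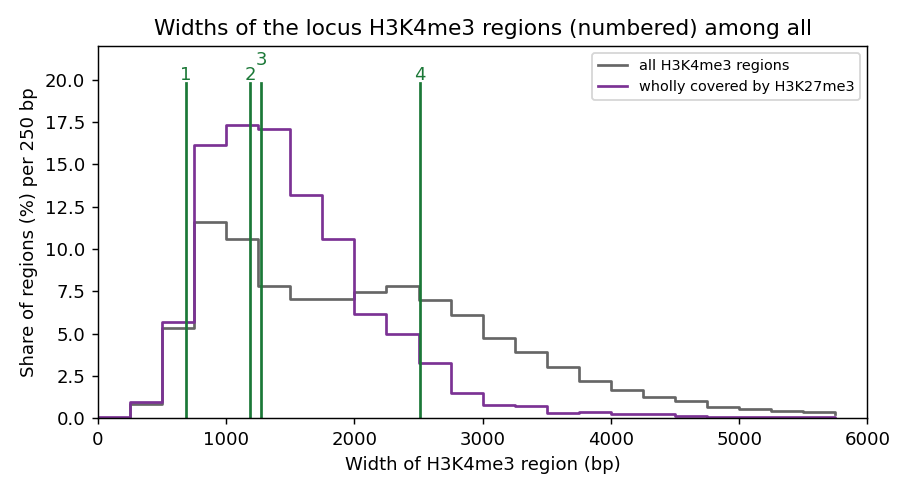
Widths of H3K4me3 regions in bins of 250 bp up to 6000 bp, as percent of all regions (grey) and of those wholly covered by H3K27me3 (purple). Green lines mark the 4 regions of the locus, numbered along the chromosome: 1 at Nkx2-9 (688 bp), 2 between Nkx2-9 and Pax9 (1187 bp), 3 and 4 at Pax9 (1274 and 2510 bp). Regions 1 to 3 lie below the median of the list (1988 bp) and region 4 above it.

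As called, the regions at the 3 genes were H3K27me3 with no H3K4me3 region at Nkx2-1, a low and narrow H3K4me3 region inside H3K27me3 at Nkx2-9, and 2 H3K4me3 regions with scores of 786 and 775 inside H3K27me3 at Pax9. The call at Nkx2-9 rests on 1 region with a score of 59.9: with H3K4me3 scores of at least 100 it is lost, and then Nkx2-9, like Nkx2-1, has none within 10 kb. The cover around the position was 97.7% at Nkx2-1, 46.9% at Nkx2-9 and 90.4% at Pax9. Whether the genes differ beyond the error between cultures cannot be tested with 1 library for each mark.

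To place the locus among other parts of the genome, the chromosomes were cut into 10148 windows of 260 kb. Their median H3K27me3 cover was 1.42%, and 376 of them (3.71%) had at least the 32.4% of the locus. The highest had 92.1%, so the locus was well covered but far from the most covered. As many as 8 top-scoring H3K27me3 regions were found in 34 windows (0.335%), and these 34 were all among the 376. In the 376 windows the median number of top-scoring regions was 3. These counts treat regions that are 23 bp apart, as in the Nkx2-1 core, as separate.

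**Figure D5:**
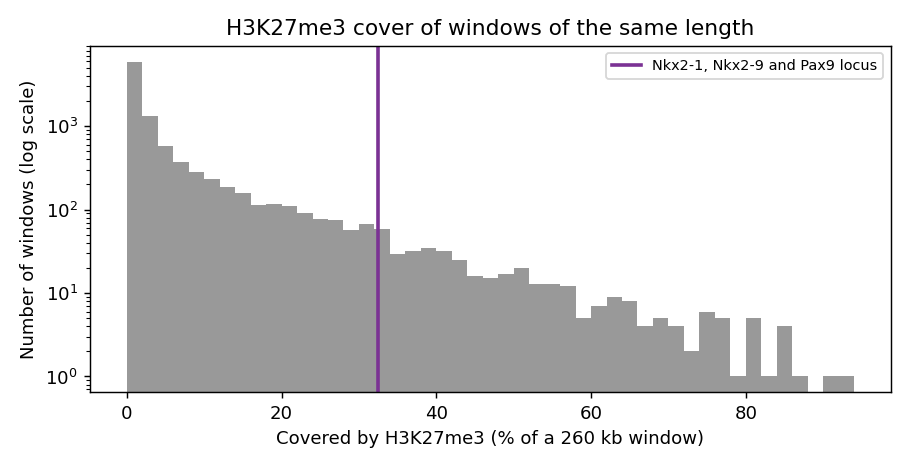
H3K27me3 cover of 10148 windows of 260 kb. The x axis is the percent of the window covered, the y axis is the number of windows on a log scale, and the purple line is the locus at 32.4%. Most windows lie near 0 (median 1.42%), and 376 lie at or above the line.

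Windows with as much H3K27me3 as the locus had a median of 4 H3K4me3 regions, the number found here. Most contained at least 1 H3K4me3 region at the top score, and 81 of the 376 (21.5%) had none. The 81 may include windows with no H3K4me3 region at all. The matching share over all 10148 windows is not given here, so the 21.5% cannot be called high or low. With at least 4 H3K4me3 regions and none at the top score, as at Nkx2-1, Nkx2-9 and Pax9, there were 13 of the 376 (3.46%). Over all 10148 windows there were 96 such windows. They made up 4.29% of the 2238 windows that held at least 4 H3K4me3 regions. The 3.46% and the 4.29% have different bases, so they cannot be set against each other. The counts with a like base are 13 of 376 windows and 96 of 10148.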

How the data were processed

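The series holds 3 samples, of which the H3K4me3 and the H3K27me3 library were used, grouped by the antibody in the labels. The authors deposited, for each, a table of regions and a score per region. The submitters' processing notes name Bowtie 1.1.2 and mm9, and the region names begin with MACS, per the deposited files. The scale of the deposited score, the calling threshold, the control and the depth were not given in the sources used here. A threshold sets which weak regions are listed, and a caller can list a broad stretch as several regions, which was not tested here. The window and the approximate gene positions came with the definition of the locus. The members and lists were chosen with earlier results of these data known, so no test was made and values are set beside the whole list. Named genes are the 3 members and the annotated genes between and next to them. The planned list of other ventral patterning genes needed gene positions on mm9, and the planned protein comparison needed protein sequences. Neither was analysed here.

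Positions are on mm9, counted from 1. Overlap means at least 1 bp, domains join regions over gaps of up to 3 kb, and windows were cut from the start of each of 21 chromosomes up to the last region in either list. The same last region gave the chromosome length for percent cover. Values were computed in Python 3.11.15 with pandas 2.3.3, NumPy 2.4.6 and SciPy 1.17.1, and drawn with matplotlib 3.10.9. The cover computation was tested on simulated data with 0 mismatches in 200 runs, and the count of overlapping H3K4me3 regions differed by 0 from that of bedtools 2.31.1. The alternatives were other joining gaps, stricter overlap, a score of at least 100, a wider window, shifted windows and windows with H3K4me3.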

Additional observations from a re-analysis of the deposited data

How the results depend on the processing

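The H3K27me3 cover of the window, 32.4% as reported, was 26.7% with scores of at least 100, 46.3% when gaps of up to 3 kb counted as covered and 24.5% in a window 100 kb wider on each side. The longest domain was 38.9 kb, at Nkx2-1. With other joining gaps it was also at Nkx2-1, 24.8 kb long with 1 kb, 38.9 kb with 5 kb and 97.1 kb with 10 kb. The 97.1 kb domain began at 57553038, before the window. With scores of at least 100 the longest was 23.6 kb, at Pax9. The number of domains of 1 kb or more was 14 as reported, 15 with gaps of up to 1 kb and 10 with 5 kb. With 10 kb it was 3, 1 at each gene. The share of windows with as much H3K27me3 was 3.71% as reported and 5.46% among windows with at least 1 H3K4me3 region. Over all windows it was 3.93% with shifted windows and 3.89% with scores of at least 100. H3K4me3 regions with H3K27me3 numbered 3 when 200 bp or 50% had to be shared (the region 25.3 kb past Nkx2-9 was lost) or H3K4me3 scores had to reach 100 (the region at Nkx2-9 was lost), and 4 with H3K27me3 scores of at least 100. The cover of each of the 4 H3K4me3 regions was the same with a score of at least 100 and with joined regions. No paired analysis was possible because the labels give 1 library for each mark, and no library could be left out. Depth is unknown, so the absence of an H3K4me3 region at Nkx2-1 has no detection limit.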
